A study of Mus musculus with 474 samples.

Results

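The 50 skeletal muscle libraries with the most Fkbp5 RNA for their sex and generation label were set against the 50 with the least, which together were 21.1% of all the libraries from Diversity Outbred mice. Fkbp5 encodes a co-chaperone of the glucocorticoid receptor and is among the best known targets that the hormone-bound receptor switches on. The libraries were placed in 10 groups by sex label (F or M) and a second title number (17, 18, 19, 21 and 23), and members were selected on the measured Fkbp5 values, the variance-stabilised levels deposited with the counts. In each group the 5 libraries highest and the 5 lowest in Fkbp5 were taken and all others were in neither class. The groups numbered 17, 18, 19, 21 and 23 held 48, 45, 49, 46 and 47 libraries labelled F and 46, 48, 50, 47 and 48 labelled M. The titles do not name this number. It is read here as the outbred generation, although 17 and 23 are not among the generations named in the methods text. Each library came from 1 animal, so the classes held 50 animals each and no animal was in both.

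The study measured RNA in muscle to ask how genetic variation acts through gene expression on metabolic traits. Diversity Outbred mice descend from 8 inbred founder strains and every animal has its own mix of their genomes. All animals, in both classes and in neither, ate the same high-fat, high-sugar diet (45% fat in the labels), and the labels name no hormone treatment. Age was not in the labels, the classes carried no engineered allele, and no measurement of corticosterone was analysed here.

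Glucocorticoids are adrenal steroid hormones that rise with stress, with fasting and over the daily cycle. In the cell they bind the receptor Nr3c1, which is held ready by Hsp90 chaperones, moves to the nucleus and raises or lowers the transcription of its targets. Fkbp5 binds the receptor complex and lowers its affinity for hormone, so that the target restrains the receptor that induces it. In skeletal muscle glucocorticoids are known for raising the genes of protein breakdown, holding back growth signalling and shifting fuel use from glucose to fatty acids and amino acids.

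Fkbp5 (on the minus strand of mouse chromosome 17, chr17:28399094-28517527 in GRCm38) chose the classes, so its own levels are a description and were not tested. Values are CPM, read counts scaled to a common library size with TMM factors. Fkbp5 lay between 101.04 and 279.6 CPM in the high class, with a mean of 169.9 ± 39.1 (SD, n = 50), and between 19.2 and 50.8 CPM in the low class, with a mean of 35.4 ± 7.62 (SD, n = 50). The libraries in neither class averaged 82.97 ± 28.2 CPM (SD). Because the cut was made within groups, some libraries in neither class exceeded the lowest high library: the highest of them stood at 175.5 CPM and the lowest at 29.1 CPM.

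The classes were cut from a continuous range. On the variance-stabilised scale that ranked the libraries, the fifth highest library of generation 17 labelled M had 13.803 and the sixth 13.797, while in generation 18 labelled F they had 13.684 and 13.328. At the lower end the fifth and sixth lowest libraries had 11.751 and 11.762 in generation 23 labelled F, and 11.462 and 11.806 in generation 23 labelled M. Those just inside and just outside a class were thus close in some groups and apart in others.

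**Figure D1:**
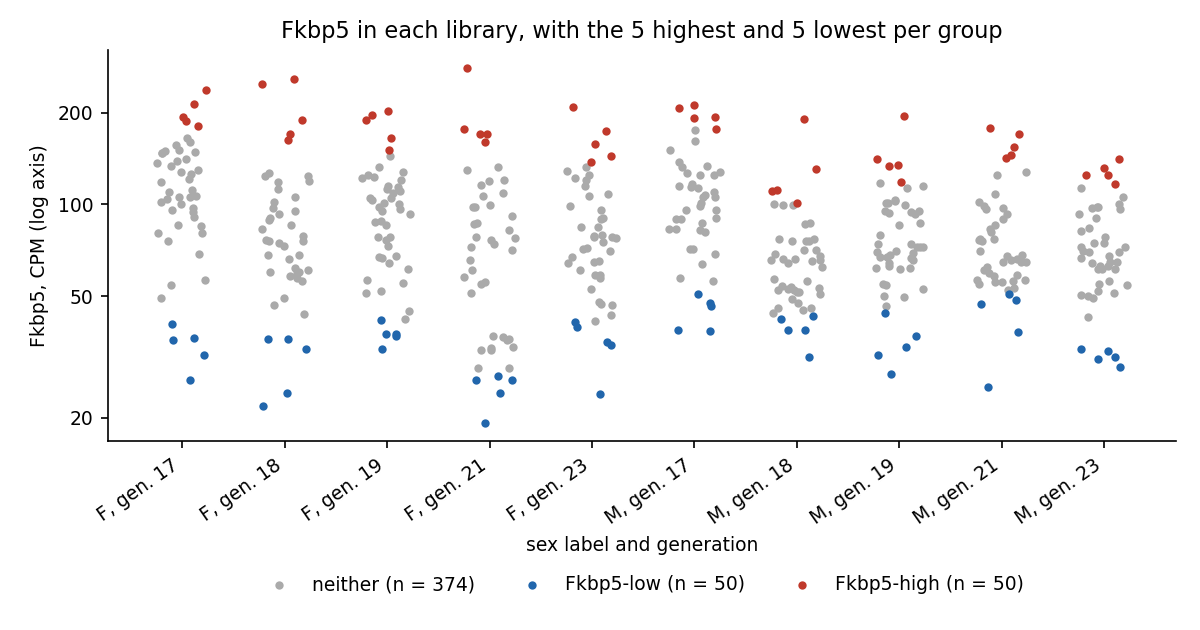
Fkbp5 in CPM (log axis) in every library, by sex label and generation. Red points are the 5 highest and blue points the 5 lowest libraries of each group, grey points all others; the range runs from 19.2 to 279.6 CPM and the gap beside a class is narrow in some groups and wider in others.

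Total counts ran from 35.9 to 165.7 M over all libraries and averaged 81.1 M reads in the high and 81.6 M in the low class (adjusted p = 0.879, permutation within groups). The share of mitochondrially encoded RNA was 10.3% and 10.8% (adjusted p = 0.235). Fast-fibre genes of limb muscle were abundant in both classes, with Myh4, the fastest myosin heavy chain, from 52575 to 88311 CPM (median 72372) in the high class and from 55819.6 to 88675 CPM (median 67864) in the low class. In 5 libraries sex-linked RNA went against the sex label, 1 of them in the high and 1 in the low class. Of the 5, the high one, labelled F, and one of neither class, labelled M, stood in each other's place in the column order of the deposited tables, which were matched by name, so whether the values of that high library belong to the labelled animal is not known. Without the 5 libraries 2678 genes passed the test below instead of 2724. Library numbers fell into 5 stretches, whose meaning the labels do not give. The high class had 14, 5, 10, 9 and 12 libraries in them and the low class 14, 9, 9, 9 and 9.

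Across 19230 genes other than Fkbp5, 2724 differed between the classes, 14.2% of those tested, at an adjusted p under 0.05 in edgeR's quasi-likelihood test with the 10 groups as covariate. Of these, 1398 were higher in the high class (7.27%) and 1326 lower (6.9%). Differences of at least 1.5-fold were fewer and mostly upward: 2.2% of the genes tested, with 1.65% higher and 0.546% lower. The median difference was 0.00 on the log2 scale over all genes and 0.25 in size among the called genes. Scaling by total count alone gave a similar number of calls with another split, 926 higher and 1836 lower. For 0 genes other than Fkbp5 did the CPM ranges of the classes separate.

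The same relation was looked at in the animals that neither class used. In those libraries each gene was fitted against Fkbp5 on the variance-stabilised scale within groups, and 1772 of 18813 genes followed it (9.42%), 785 rising (4.17%) and 987 falling (5.25%). Scaling by total count alone changed this split to 1711 falling of 2127. Of the genes tested both ways, 994 were called in both with the same sign, which is 36.6% of the class calls and 56.1% of the slope calls, and 1 was called with opposite signs. Slopes below are log2 changes per unit of Fkbp5 on that scale.

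Of 14 genes for the receptors, hormone activation and chaperones, 2 were higher and 1 lower, which is 21.4% against 14.2% of all genes tested, with a median log2 difference of 0.03. Nr3c1, the glucocorticoid receptor, ranged from 105.2 to 198.4 CPM (median 134.04) in the high class and from 108.97 to 192.1 CPM (median 138.8) in the low class (log2 difference -0.04 ± 0.04, adjusted p = 0.605), and its ranges overlapped almost completely. Hsd11b1, the enzyme that restores active hormone from its inactive form inside cells, ranged from 3.46 to 11.5 CPM (median 6.61) in the high class and from 2.86 to 8.79 CPM (median 5.57) in the low class (log2 difference 0.21 ± 0.07, adjusted p = 0.0186). It was slightly higher in the high class, but its slope in the other libraries did not pass (-0.01, adjusted p = 0.96), and with scores of the cell-type markers as covariates the difference was 0.13 (adjusted p = 0.315).

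Ppp5c, a phosphatase of the receptor's chaperone complex, differed by less than many genes yet in all 10 groups, at 48.7 against 44.6 CPM (log2 difference 0.14 ± 0.02, adjusted p = 5.43e-08). Nr3c2, the mineralocorticoid receptor, which also binds corticosterone, was lower, at 14.7 against 16.3 CPM (log2 difference -0.14 ± 0.05, adjusted p = 0.0229). With the marker scores, with 10 libraries per class and group, in F alone and in M alone, 0 of the 14 genes passed as lower. Fkbp4, the relative of Fkbp5 that helps carry the receptor to the nucleus, had medians of 90.6 against 89.5 CPM (log2 difference -0.01 ± 0.03, adjusted p = 0.875). The Hsp90 genes Hsp90aa1 (log2 difference -0.09, adjusted p = 0.656) and Hsp90ab1 (0.04, adjusted p = 0.341) did not pass the test.

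Known glucocorticoid-induced genes were higher in the high class in large part. Of 27 listed, 23 were higher, 0 were lower and 4 did not pass, with a median log2 difference of 0.71 against 0.00 for all genes. The called share was 85.2% against 14.2% of all genes, of which 7.27% were higher. This and the other lists were chosen with earlier results of these data known, so their shares are a description. In the other libraries 15 of the 27 rose with Fkbp5 and 0 fell, where 4.17% of all genes rose. The second marker of the hormone signal, Tsc22d3 (Gilz, an anti-inflammatory leucine zipper protein), ranged from 177.7 to 511.9 CPM (median 322.2) in the high class and from 122.3 to 366.2 CPM (median 226.1) in the low class. Of the 50 high libraries 45 lay above the low median, though the ranges overlapped (log2 difference 0.51 ± 0.07, adjusted p = 2.13e-09). Within their own groups 37 of 50 high libraries and 6 of 50 low libraries were above the group's median of Tsc22d3. Its slope in the other libraries was shallow but passed (0.17, adjusted p = 0.00266).

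The largest differences of the list were in small metal-binding proteins. Mt2, a metallothionein, ranged from 3.15 to 78.5 CPM (median 20.3) in the high class and from 0.887 to 33.9 CPM (median 3.68) in the low class (log2 difference 2.34 ± 0.22, adjusted p = 2.56e-14). Mt1, its neighbour on the chromosome, ranged from 5.32 to 66.7 CPM (median 21.04) in the high class and from 1.001 to 31.1 CPM (median 4.15) in the low class (log2 difference 2.20 ± 0.19, adjusted p = 7.84e-17). All 50 high libraries were above the low median of Mt1, and 48 above that of Mt2. Because these genes are similar in sequence, reads may have been split between them.

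Ddit4 (Redd1), an inhibitor of the growth kinase mTOR, ranged from 6.48 to 329.4 CPM (median 91.7) in the high class and from 2.43 to 81.96 CPM (median 25.4) in the low class (log2 difference 2.03 ± 0.24, adjusted p = 7.92e-11). Lcn2, a secreted protein that binds siderophores, ranged from 0.286 to 7.49 CPM (median 1.26) in the high class and from 0.159 to 0.956 CPM (median 0.401) in the low class (log2 difference 2.01 ± 0.18, adjusted p = 2e-15). Cdkn1a (p21), an inhibitor of the cell cycle, ranged from 14.5 to 161.96 CPM (median 50.99) in the high class and from 9.03 to 42.6 CPM (median 25.04) in the low class (log2 difference 1.20 ± 0.12, adjusted p = 2.29e-13). Each was higher in all 10 groups, with overlapping ranges and the low median inside the range of the high class.

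Glul, which makes glutamine from glutamate, had medians of 545.1 against 242.2 CPM (log2 difference 1.16 ± 0.10, adjusted p = 8.75e-16), and 48 of the 50 high libraries were above the low median. Zbtb16, a zinc finger repressor long used as a readout of the receptor, had medians of 186.4 against 111.5 CPM (log2 difference 0.75 ± 0.06, adjusted p = 1.96e-16). Klf15, a factor that turns on amino acid breakdown, had medians of 38.6 against 25.96 CPM (log2 difference 0.72 ± 0.09, adjusted p = 1.26e-09). Klf9, a related factor, moved less, from 138.4 against 116.5 CPM (log2 difference 0.30 ± 0.05, adjusted p = 2.35e-07). All 4 genes also rose with Fkbp5 in the other libraries.

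Cebpd (log2 difference 1.44, adjusted p = 1.16e-08), Hif3a (1.56, adjusted p = 3.61e-12), Map3k6 (1.11, adjusted p = 5.61e-14), Arrdc2 (1.03, adjusted p = 1.17e-07) and Pik3r1 (0.77, adjusted p = 1.24e-16) were also higher. Pik3r1 encodes the regulatory subunit of phosphatidylinositol kinase in insulin signalling, and Cebpd is a factor of stress and fat cell genes. Per1 belonged to both this list and the clock list and was higher in 9 of 10 groups (log2 difference 0.56 ± 0.12, adjusted p = 0.000138), with no slope that passed in the other libraries (0.12, adjusted p = 0.3).

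The 4 listed targets that did not pass were Sgk1, Dusp1, Bcl6 and Ampd3. Sgk1, a kinase that regulates ion transport, ranged from 64.7 to 305.8 CPM (median 163.99) in the high class and from 67.05 to 242.5 CPM (median 138.4) in the low class (log2 difference 0.22 ± 0.08, adjusted p = 0.0509), and its slope was 0.00 (adjusted p = 0.974). It stood near the threshold and passed in 13 of the 33 settings tried, among them the fit with marker scores (0.31, adjusted p = 0.0147) and the libraries labelled M alone (0.37, adjusted p = 0.0429), while Bcl6 and Ampd3 passed in 1 each and Dusp1 in 0. Dusp1, which switches off stress kinases, had medians of 79.1 against 88.2 CPM (log2 difference -0.10 ± 0.10, adjusted p = 0.586), and Bcl6, a transcriptional repressor, had 86.7 against 101.8 CPM (log2 difference -0.18 ± 0.09, adjusted p = 0.172). Ampd3, an AMP deaminase, differed between the sexes, as given further on.

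**Figure D2:**
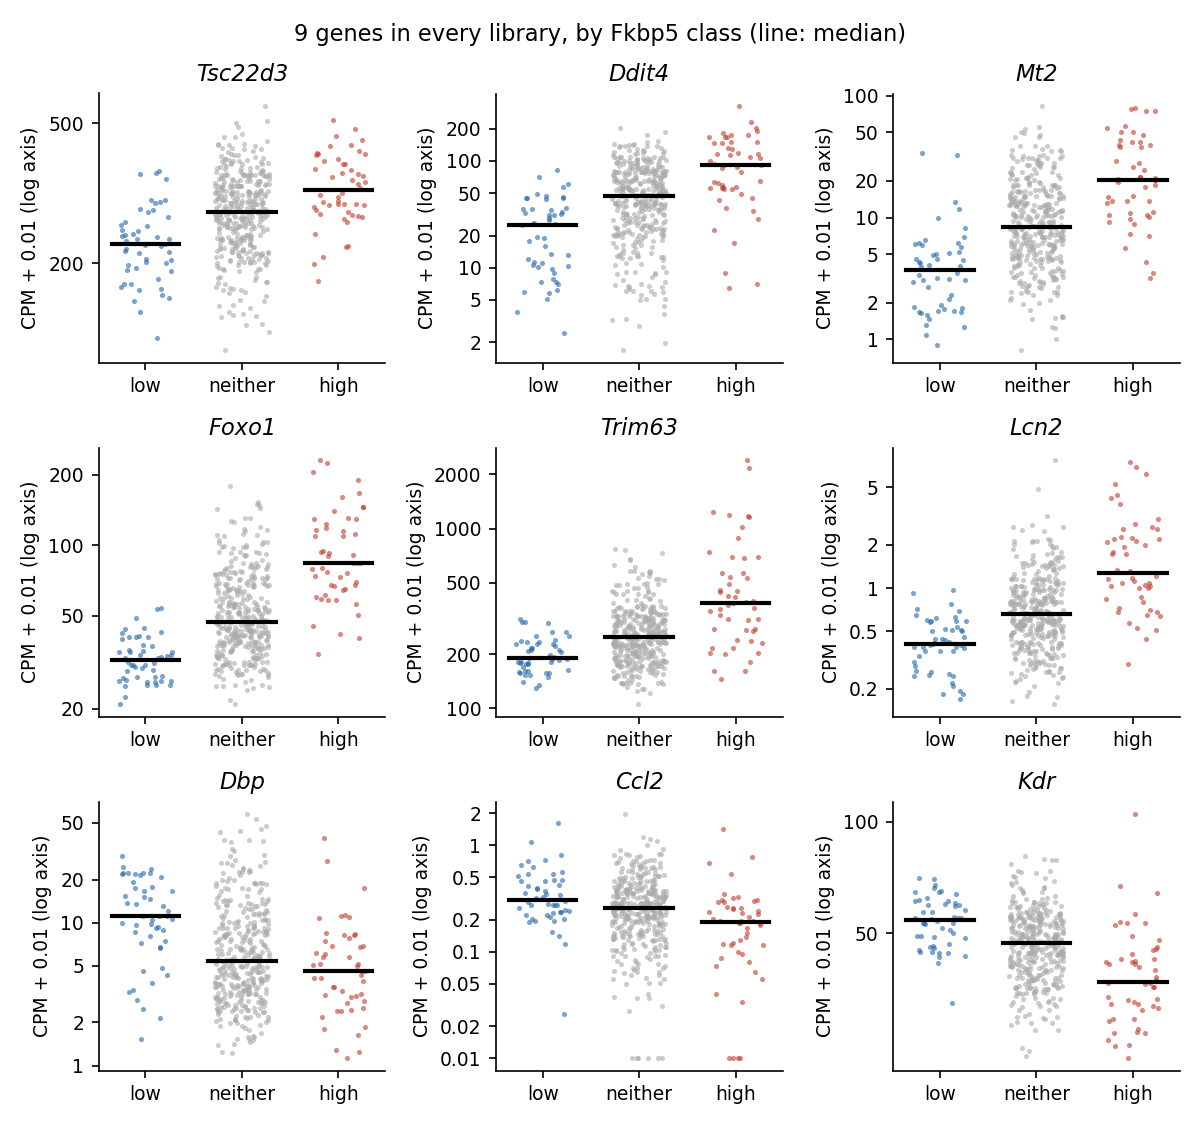
CPM plus 0.01 (log axis) of 9 genes in the 50 low libraries, those of neither class and the 50 high libraries, with the median as a line. Tsc22d3, Ddit4, Mt2, Foxo1, Trim63 and Lcn2 have higher and Dbp, Ccl2 and Kdr lower medians in the high class, and the point clouds overlap for every gene.

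Of 21 atrophy and autophagy genes, 14 were higher, 0 lower and 7 did not pass (median 0.20), beside 7.27% higher among all genes. In the other libraries 10 rose with Fkbp5, beside 4.17% of all genes. In M alone 6 of the 21 passed, and 2 with the clock components described further on. Foxo1, the transcription factor that drives many of these genes when insulin signalling is low, ranged from 34.2 to 231.9 CPM (median 83.8) in the high class and from 20.9 to 53.8 CPM (median 32.3) in the low class. All 50 high libraries lay above the low median, and the ranges overlapped only between 34.2 and 53.8 CPM (log2 difference 1.54 ± 0.10, adjusted p = 4.02e-23). Foxo3, a related factor, ranged from 25.6 to 130.1 CPM (median 53.1) in the high class and from 21.9 to 57.7 CPM (median 38.3) in the low class (log2 difference 0.57 ± 0.06, adjusted p = 7.44e-13).

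The ubiquitin ligases by which muscle marks its proteins for breakdown spread widely. Trim63 (MuRF1) ranged from 146.3 to 2412 CPM (median 386.9) in the high class and from 130.6 to 315.7 CPM (median 191.5) in the low class (log2 difference 1.27 ± 0.15, adjusted p = 3.21e-11). Fbxo32 (atrogin-1) ranged from 234.3 to 2827 CPM (median 710.8) in the high class and from 302.4 to 741.5 CPM (median 446.9) in the low class (log2 difference 0.74 ± 0.12, adjusted p = 1.03e-06). Low libraries stayed in a narrow band, whereas some high libraries reached several times the level of any low one and others did not leave the band. The within-group differences of Trim63 averaged 1.52 in the groups labelled F and 0.65 in those labelled M, a gap that did not pass the test of the difference between sexes (adjusted p = 0.0763).

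Cblb, a ubiquitin ligase that acts on signalling proteins, had medians of 26.1 against 18.7 CPM (log2 difference 0.48 ± 0.06, adjusted p = 1.43e-10). Mstn, the secreted inhibitor of muscle growth, had 74.8 against 56.7 CPM (log2 difference 0.38 ± 0.08, adjusted p = 0.000181). These were higher in 10 and 8 of the 10 groups. Of the autophagy genes, Bnip3 (log2 difference 0.26, adjusted p = 0.000671), Map1lc3a (0.27, adjusted p = 0.000525) and Sqstm1 (0.14, adjusted p = 0.022) were higher, while Ulk1 (0.18, adjusted p = 0.0611), Gabarapl1 (0.16, adjusted p = 0.337) and the ligase Nedd4 (-0.01, adjusted p = 0.823) did not pass.

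**Figure D3:**
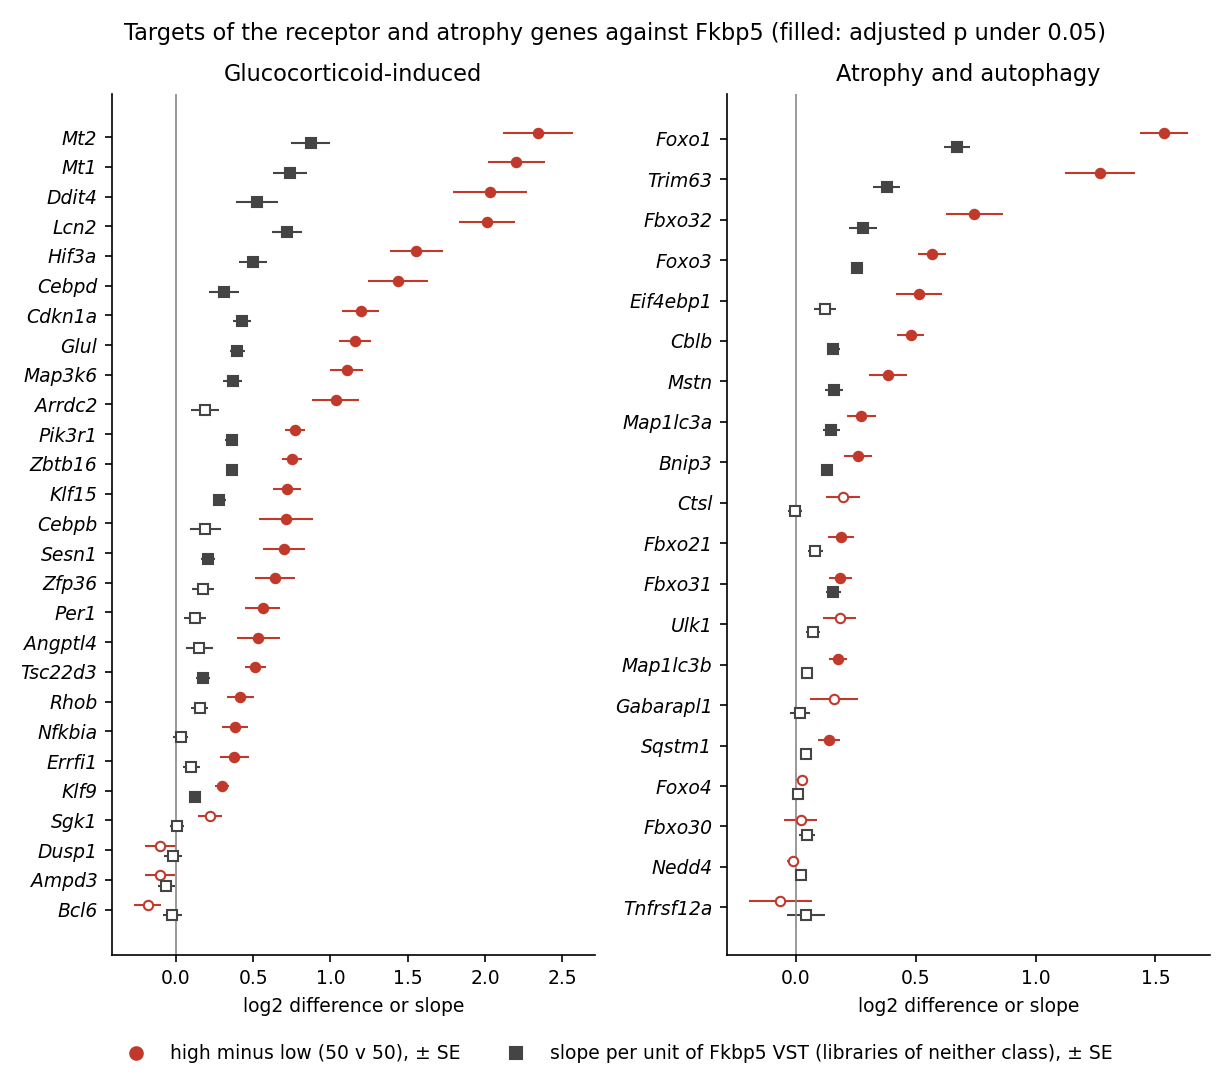
Log2 difference between the classes (red circles) and log2 slope per unit of Fkbp5 in the libraries of neither class (grey squares), each ± SE, for the 27 glucocorticoid-induced and 20 of the 21 atrophy genes; filled symbols had an adjusted p under 0.05. Filled symbols lie to the right of 0 in both lists, and the filled circles run from Mt2 at 2.34 down to Sqstm1 at 0.14.

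The receptor binds DNA as a pair at AGAACA, any 3 bases, then TGTTCT, which reads the same on both strands. RefSeq promoter windows of 300 bases (250 before and 50 after the start, GRCm38.p6) were found for 40 of 47 genes looked up, 56 windows in all. Of these, 3 (5.36%) matched the motif with at most 2 mismatches in its 12 fixed bases, against 1.85% of all 32851 windows. They belonged to 2 of the 40 genes, since Sgk1, with 6 windows, held 2 of the 3. Exact matches were found in 3 of all 32851 windows, 0.00913%. A match is a description of the letters, and the receptor also acts at distant enhancers that these windows leave out. The windows of Trim63 and Sgk1 are printed because they held the nearest matches among the listed targets. Capitals mark the match.

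Trim63, chr4:134314870-134315169, plus strand, 1 mismatch, bases -209 to -195 from the start: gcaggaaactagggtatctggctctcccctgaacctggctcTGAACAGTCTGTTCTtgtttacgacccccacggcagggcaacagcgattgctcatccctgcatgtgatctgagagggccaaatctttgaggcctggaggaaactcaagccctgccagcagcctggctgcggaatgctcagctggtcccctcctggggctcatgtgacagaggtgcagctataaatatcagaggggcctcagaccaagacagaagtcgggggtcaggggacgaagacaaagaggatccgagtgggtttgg

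Sgk1, chr10:21993640-21993939, plus strand, 0 mismatches, bases -189 to -175 from the start: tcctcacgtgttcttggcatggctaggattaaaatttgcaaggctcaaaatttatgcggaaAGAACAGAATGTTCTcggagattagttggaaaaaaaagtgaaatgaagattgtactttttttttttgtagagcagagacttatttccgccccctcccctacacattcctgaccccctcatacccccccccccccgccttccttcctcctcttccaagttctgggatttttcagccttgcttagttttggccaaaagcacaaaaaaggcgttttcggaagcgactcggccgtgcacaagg

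The match in the Trim63 window is followed directly by GTAAACA on the other strand, the core bound by FOXO factors, which 3.65% of all windows held on either strand. Among the windows looked up 4 of 56 held it (7.14%), those of Trim63, Sesn1, Klf9 and Hsd11b1. AGAACA alone, on either strand, was in 6 of the 56 windows (10.7%) and in 18.97% of all windows. The match in the Trim63 window contains it as well.

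Outside the lists, the 12 genes with the largest positive differences that were higher in all 10 groups included several of other functions. Doc2b, a calcium sensor of vesicle fusion, ranged from 0.276 to 17.6 CPM (median 2.06) in the high class and from 0.087 to 1.59 CPM (median 0.424) in the low class (log2 difference 2.37 ± 0.21, adjusted p = 1.29e-15). Odf3l2 ranged from 15.04 to 151.6 CPM (median 60.7) in the high class and from 1.31 to 32.1 CPM (median 12.7) in the low class (log2 difference 2.29 ± 0.17, adjusted p = 2.17e-19), and all 50 high libraries were above its low median. Slc7a8, a carrier of large neutral amino acids, ranged from 7.42 to 89.5 CPM (median 26.7) in the high class and from 5.64 to 21.2 CPM (median 9.57) in the low class (log2 difference 1.60 ± 0.12, adjusted p = 3.71e-20). The remaining genes of the 12 were Mt1, Mt2, Ddit4, Lcn2, Hif3a and Foxo1, given above, with Otog, the otogelin gene of the inner ear (log2 difference 1.75, adjusted p = 9.32e-18), Kcnf1, a potassium channel subunit (1.66, adjusted p = 4.54e-06), and Cyp2e1, a cytochrome P450 enzyme (1.35, adjusted p = 1.31e-05).

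The 12 genes with the largest negative differences in all 10 groups held a ligand and its receptor. Aplnr, the apelin receptor of blood vessels, ranged from 0.421 to 7.25 CPM (median 2.07) in the high class and from 1.70 to 8.28 CPM (median 4.14) in the low class (log2 difference -1.03 ± 0.12, adjusted p = 1.39e-10). Its ligand Apln ranged from 0.243 to 2.41 CPM (median 0.704) in the high class and from 0.535 to 2.73 CPM (median 1.54) in the low class (log2 difference -0.97 ± 0.13, adjusted p = 2.63e-09). Both were lower in the high class, and 2 and 4 high libraries lay above the low medians. In whole muscle, fewer cells of a type and less RNA per cell cannot be told apart.

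Ky, a muscle protein whose loss causes curvature of the spine in mice, ranged from 39.6 to 222.7 CPM (median 109.6) in the high class and from 136.4 to 328.4 CPM (median 201.5) in the low class (log2 difference -0.87 ± 0.09, adjusted p = 5.11e-13). Pfkfb3, which makes the activator of the key step of glycolysis, had medians of 244.3 against 538.3 CPM (log2 difference -0.87 ± 0.14, adjusted p = 4.09e-07). Ccnd1, a cyclin that starts the cell cycle, had 4.41 against 7.93 CPM (log2 difference -0.81 ± 0.08, adjusted p = 3.22e-13). Few high libraries, between 1 and 6, lay above the low median of these. Dbp, a clock output factor (log2 difference -1.11, adjusted p = 2.11e-05), Spon2, a matrix protein (-1.09, adjusted p = 1.21e-10), Slc6a2, the noradrenaline transporter of sympathetic nerves (-0.73, adjusted p = 6.18e-06), Cd248, a surface protein of pericytes and fibroblasts (-0.64, adjusted p = 2.3e-10), Fam167a (-0.79, adjusted p = 1.21e-07), D430041D05Rik (-0.66, adjusted p = 0.000223) and 1110002E22Rik (-0.64, adjusted p = 1.5e-10) completed the set.

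Genes that glucocorticoids are known to repress in inflammation were few and low in this muscle. Of 12, 0 were higher and 3 lower (median -0.34), beside 6.9% lower among all genes, and 4 fell with Fkbp5 in the other libraries, where 5.25% of all genes did. Ccl2, which attracts monocytes, ranged from 0 to 1.40 CPM (median 0.18) in the high class and from 0.016 to 1.59 CPM (median 0.297) in the low class (log2 difference -0.88 ± 0.24, adjusted p = 0.00567). Cxcl1, which attracts neutrophils, ranged from 0.0268 to 1.38 CPM (median 0.172) in the high class and from 0.0276 to 1.69 CPM (median 0.309) in the low class (log2 difference -0.80 ± 0.20, adjusted p = 0.0016). Nos2, the inducible nitric oxide synthase, ranged from 0.446 to 3.50 CPM (median 1.41) in the high class and from 0.984 to 3.33 CPM (median 2.13) in the low class (log2 difference -0.56 ± 0.10, adjusted p = 9.1e-06). Nos2 was lower in all 10 groups and Ccl2 in 9, and all 3 ranges overlapped. Ccl2 and Nos2 also fell in the other libraries, whereas the slope of Cxcl1 did not pass (-0.27, adjusted p = 0.25). Vcam1, an adhesion molecule of activated vessels, did not differ between the classes beyond its error (log2 difference -0.01 ± 0.10, adjusted p = 0.956) but fell in the other libraries (-0.30, adjusted p = 0.000879). Il1b, Il6 and Tnf had medians under 0.1 CPM in both classes and did not pass.

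Of 16 genes of insulin and IGF signalling, 4 were higher and 1 lower, which is 31.2% against 14.2% of all genes (median 0.03). Igfbp3, a binding protein that holds IGF in the circulation, had medians of 16.1 against 10.8 CPM (log2 difference 0.59 ± 0.08, adjusted p = 5.65e-09). Igfbp5, a binding protein made by muscle itself, was the one lower, at 561.7 against 767.3 CPM (log2 difference -0.46 ± 0.09, adjusted p = 0.000125). Slc2a4, the insulin-responsive glucose carrier Glut4, was a little higher in all 10 groups, at 411.2 against 368.1 CPM (log2 difference 0.12 ± 0.03, adjusted p = 0.000865). Akt2 (log2 difference 0.15, adjusted p = 0.00169) and Mtor (0.09, adjusted p = 0.0245) were the other two higher. Igf1, the growth factor itself, did not pass (log2 difference -0.06 ± 0.09, adjusted p = 0.773). Its overall value joined opposite ones, -0.38 in F alone (adjusted p = 0.00501) and 0.26 in M alone (adjusted p = 0.392), and the difference between the sexes did not pass (fitted M minus F 0.64 ± 0.18, adjusted p = 0.116). Irs1, the docking protein of the insulin receptor, did not pass either (log2 difference -0.33 ± 0.12, adjusted p = 0.0612).

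Of 20 genes of fatty acid use, 9 were higher and 0 lower (median 0.15), a called share of 45% against 14.2% of all genes. In the other libraries 13 rose and 1 fell, Plin2, where 4.17% of all genes rose and 5.25% fell. Pdk4, which closes the entry of glucose carbon into mitochondria, ranged from 430.9 to 4275 CPM (median 1596) in the high class and from 448.8 to 2528 CPM (median 1045) in the low class (log2 difference 0.77 ± 0.12, adjusted p = 1.04e-06). Ucp3, a mitochondrial carrier raised when fatty acids are burned, ranged from 90.8 to 511.6 CPM (median 297.6) in the high class and from 72.4 to 364.2 CPM (median 160.4) in the low class (log2 difference 0.82 ± 0.10, adjusted p = 1.68e-10). Plin5, a coat protein that ties lipid droplets to mitochondria, had medians of 22.04 against 15.6 CPM (log2 difference 0.50 ± 0.08, adjusted p = 3.89e-06). All 3 were higher in all 10 groups. The beta-oxidation enzymes Hadha (log2 difference 0.01, adjusted p = 0.95), Acadm (0.04, adjusted p = 0.568) and Acadl (0.07, adjusted p = 0.301) did not pass, though the last 2 rose slightly in the other libraries, by 0.07, adjusted p = 0.027 and 0.08, adjusted p = 0.0379. Ppargc1a, the coactivator of mitochondrial growth, did not pass either (log2 difference 0.13 ± 0.15, adjusted p = 0.659).

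Of 17 genes of amino acid breakdown, 2 were higher and 0 lower, which is 11.8% and near the 14.2% of all genes (median 0.06). Prodh, the first enzyme of proline breakdown, ranged from 4.37 to 15.3 CPM (median 7.80) in the high class and from 1.91 to 6.95 CPM (median 4.12) in the low class (log2 difference 0.95 ± 0.08, adjusted p = 2.41e-17), with all 50 high libraries above the low median. Gpt2, a mitochondrial alanine transaminase, had medians of 320.4 against 236.3 CPM (log2 difference 0.37 ± 0.06, adjusted p = 2.18e-07). The branched-chain enzymes Bcat2 (0.14, adjusted p = 0.0626), Bckdha (0.06, adjusted p = 0.444) and Bckdhb (0.12, adjusted p = 0.175) did not pass.

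The classes also differed in clock genes. Of 19, 5 were higher and 6 lower (median 0.12), which is 57.9% against 14.2% of all genes. In the other libraries 3 rose and 5 fell, where 9.42% of all genes did either. Dbp ranged from 1.11 to 39.4 CPM (median 4.58) in the high class and from 1.53 to 29.04 CPM (median 11.2) in the low class (log2 difference -1.11 ± 0.21, adjusted p = 2.11e-05), and 4 of the 50 high libraries were above the low median. Within their own groups 20 of 50 high libraries and 39 of 50 low libraries were above the group's median of Dbp. Nr1d1 (Rev-erb alpha), the repressor that shapes the daily rhythm of Arntl, ranged from 16.5 to 150.1 CPM (median 60.5) in the high class and from 51.02 to 137.9 CPM (median 93.4) in the low class (log2 difference -0.60 ± 0.11, adjusted p = 8.84e-06). Nfil3, a repressor that opposes Dbp at the same sites, ranged from 30.8 to 197.2 CPM (median 77.3) in the high class and from 19.8 to 78.7 CPM (median 36.7) in the low class (log2 difference 1.03 ± 0.11, adjusted p = 1.64e-12). Dbp and Nr1d1 were thus lower and Nfil3 higher in every one of the 10 groups, with overlapping ranges.

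Arntl (Bmal1), the core activator, was higher (log2 difference 0.42, adjusted p = 0.00161), as were Per1 and Rora, and Bhlhe40, Per3, Hlf and Nr1d2 were lower (differences between -0.56 and -0.30). Clock itself (0.06, adjusted p = 0.568), Per2 (0.19, adjusted p = 0.43) and Cry1 (0.12, adjusted p = 0.102) did not pass. The first 2 principal components of 18 of these genes, Per1 left out, averaged 0.626 ± 2.44 and 1.43 ± 1.61 (SD) in the high class and -1.19 ± 2.46 and -1.02 ± 0.882 in the low class. The time of day at which muscle was taken is not in the labels, and its part in the differences was not tested.

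With those components as covariates, an alternative chosen after the data had been seen, 2.89% of the genes passed instead of 14.2%. Of the 27 induced genes 12 then passed (median 0.40), of the 21 atrophy genes 2, of the 20 fuel genes 2, of the 12 inflammatory genes 0 and of the 19 clock genes 0. All of those clock genes but Per1 had entered the components, which held 41.96% and 13.19% of their variance. The genes that still passed included Foxo1 (1.20, adjusted p = 5.99e-12), Foxo3 (0.36, adjusted p = 0.000594), Mt2 (1.96, adjusted p = 8.45e-07), Lcn2 (1.68, adjusted p = 2.01e-06), Ddit4 (1.23, adjusted p = 0.00557) and Tsc22d3 (0.34, adjusted p = 0.00842). Trim63 (0.44, adjusted p = 0.173), Fbxo32 (0.07, adjusted p = 0.89), Klf15 (0.24, adjusted p = 0.259), Pdk4 (0.18, adjusted p = 0.677), Per1 (0.40, adjusted p = 0.125) and Aplnr (-0.48, adjusted p = 0.0707) no longer did. Of the 2724 genes, 96.3% kept the sign of their difference, and their sizes had a median ratio of 0.724 to those above.

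**Figure D4:**
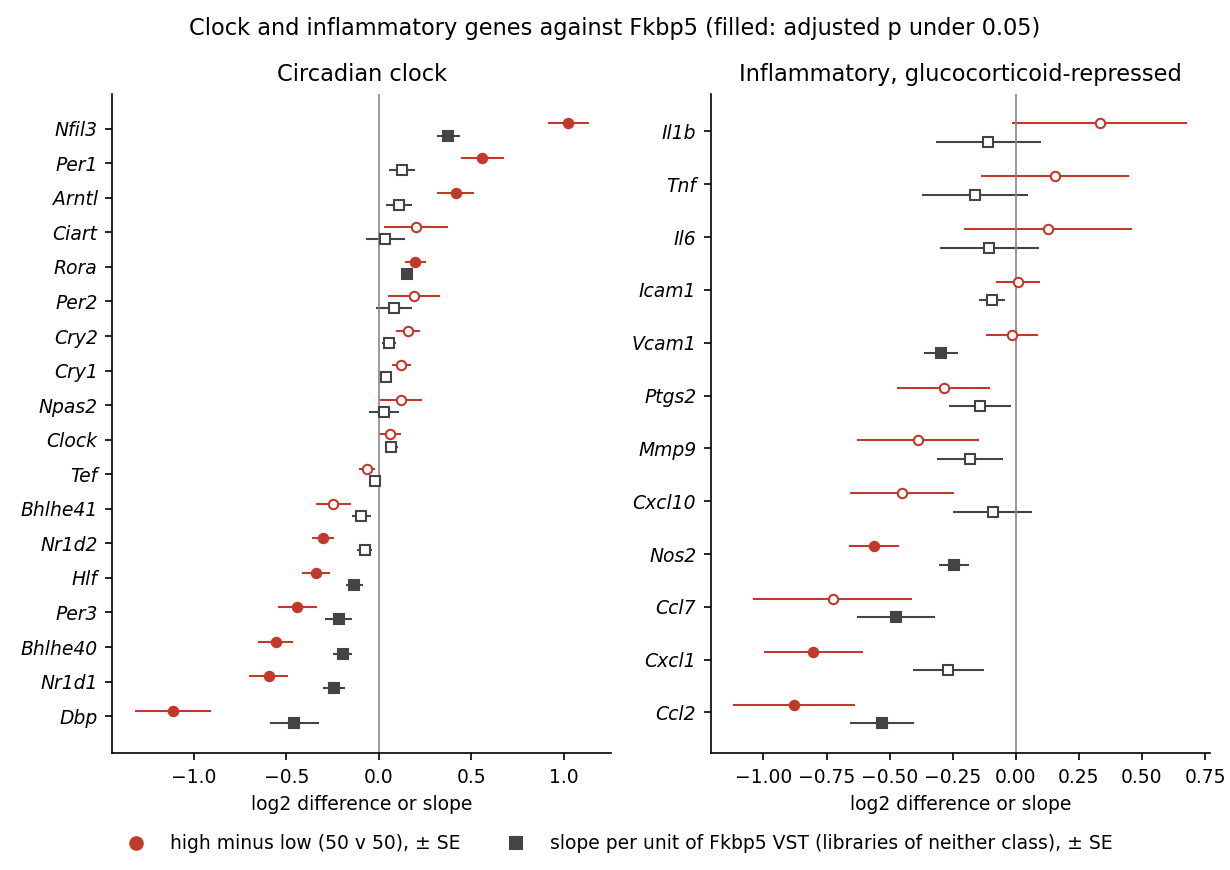
Log2 difference between the classes (red circles) and log2 slope per unit of Fkbp5 in the libraries of neither class (grey squares), each ± SE, for 18 of the 19 clock and 12 inflammatory genes; filled symbols had an adjusted p under 0.05. Clock genes lie on both sides of 0, from Dbp at -1.11 to Nfil3 at 1.03, and the filled inflammatory symbols lie below 0.

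Few genes of acute stimulation and heat stress passed. Of 14 immediate-early genes 0 passed in edgeR's test, while DESeq2 called 1 higher and 1 lower and limma 0. Their median difference was 0.27 in F alone and -0.37 in M alone. Btg2, a member of the list, passed edgeR's test of the difference between sexes (fitted M minus F -1.33, adjusted p = 0.0444). It did so in 3 of 5 settings. Fos ranged from 3.14 to 312.1 CPM (median 17.7) in the high class and from 3.89 to 229.1 CPM (median 17.96) in the low class (log2 difference -0.14 ± 0.24, adjusted p = 0.781), with wide and overlapping ranges. Of 12 heat shock genes 0 passed by any of these tools, and the largest difference in size was that of Hspa1b (log2 difference -0.52 ± 0.25, adjusted p = 0.169), an inducible chaperone.

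Marker genes of other cell types were read beside these results as the summed CPM of each list. Macrophage markers summed to 116.7 ± 28.2 CPM in the high and 102.6 ± 18.3 CPM in the low class (adjusted p = 0.024, permutation within groups, 15 library properties tested). Endothelial markers summed to 238.6 ± 30.7 and 259.6 ± 24.8 CPM (adjusted p = 0.0012), and fibro-adipogenic markers to 1075 ± 232.8 and 1201 ± 172.5 CPM (adjusted p = 0.0197). These 3 sums differed between the classes, with ranges that overlapped, and with medians in place of means the fibro-adipogenic sum no longer passed (adjusted p = 0.072). The sums of fast-fibre, slow-fibre, adipocyte, neutrophil, lymphocyte, Schwann cell, erythroid and brown adipocyte markers did not pass, with adjusted p from 0.0724 to 0.879.

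Within the lists the members did not move as one. Of 10 macrophage genes 1 was higher, a share near the 7.27% of all genes. This was Cd163, the haemoglobin scavenger receptor, ranging from 10.96 to 39.03 CPM (median 19.4) in the high class and from 7.37 to 21.5 CPM (median 14.1) in the low class (log2 difference 0.53 ± 0.07, adjusted p = 4.68e-09). The pan-macrophage genes Adgre1 (log2 difference -0.01, adjusted p = 0.978), Cd68 (-0.03, adjusted p = 0.881) and Csf1r (0.03, adjusted p = 0.839) did not pass. Of 8 endothelial genes 1 was higher, the adhesion gene Esam (0.17, adjusted p = 0.000278), and 3 lower, where 6.9% of all genes were lower. The lower ones were Kdr, the main receptor for vascular growth factor, at 37 against 54.4 CPM (log2 difference -0.45 ± 0.07, adjusted p = 1.48e-07), Cdh5 (-0.19, adjusted p = 1.65e-05) and Tek (-0.10, adjusted p = 0.00708), while Pecam1 (0.06, adjusted p = 0.438) did not pass.

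Beside the same 6.9%, 4 of 8 fibro-adipogenic genes were lower, the collagens Col1a1 (log2 difference -0.35, adjusted p = 0.0161), Col1a2 (-0.26, adjusted p = 0.0365) and Col3a1 (-0.27, adjusted p = 0.0118) and the matrix gene Lum (-0.28, adjusted p = 0.00624), while Pdgfra (0.09, adjusted p = 0.139), the gene that defines these cells, did not pass. Leaving out each group in turn gave 1 to 4 lower of the 8. In F alone 2 were lower, in M alone 0 and with the clock components 0. Adipocyte genes gave Pck1 (0.87, adjusted p = 0.0457) and Cfd (0.60, adjusted p = 0.0369) higher out of 9, and neutrophil genes Cxcr2 (0.52, adjusted p = 0.0351) out of 5. In limma, and with scaling by total count alone, 0 genes of these 2 lists passed. Tnni2 (0.10, adjusted p = 0.0454) was the 1 of 12 fast-fibre genes that passed. The called shares of the adipocyte, neutrophil and fast-fibre lists were 22.2%, 20% and 8.33% against 14.2% of all genes. Slow-fibre, lymphocyte, Schwann cell, erythroid and brown adipocyte genes gave 0 calls of 9, 9, 7, 5 and 4, where DESeq2 called 1, 2, 0, 0 and 2 and limma 0. The lymphocyte genes had a median difference of 0.96 between the classes and a median slope of -1.35 in the other libraries, where 6 of 9 fell. The class difference was not stable, at -0.51 with 10 libraries per class and group, -0.01 in F alone and 1.90 in M alone, and without generation 19 labelled F 5 of the 9 passed. Their sums ran from 0.286 to 98.7 CPM in the high class around a median of 1.03 and from 0.422 to 62.2 CPM in the low class around 0.972.

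With the marker scores as covariates 1580 genes passed, among them 24 of the 27 induced, 10 of the 21 atrophy and 4 of the 12 inflammatory genes. All of the 2724 genes kept their sign in that fit, and their sizes had a median ratio of 0.905 to those above. Foxo1 was then 1.39 (adjusted p = 8.26e-17) and Trim63 1.08 (adjusted p = 1.38e-07).

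The classes were compared within each sex as well. Among libraries labelled F 1846 genes passed and among those labelled M 815, and Fkbp5 itself had medians of 180.5 against 34.5 CPM in F and 141.1 against 38.4 CPM in M. Of the 27 induced genes 22 were higher in F alone, and 17 were higher and 1 lower in M alone. Of the 21 atrophy genes 15 were higher in F alone and 6 in M alone, and of the 20 fuel genes 9 and 2. Among all genes tested 9.93% were called in F alone and 4.44% in M alone. The difference between the sexes was tested by the interaction of class and sex, which passed for 32 genes (0.166%) and had an unadjusted p under 0.05 for 1587. In 27 of the 32 the high minus low difference was lower in M and in 5 higher. The largest in size were those of Gm37158 (fitted M minus F -7.89), Gm47283 (-6.57) and Gm21244 (-5.49). Without the 5 libraries of discordant sex-linked RNA these became -0.07, -0.08 and -0.01 and did not pass. In that setting 16 of the 32 still passed. Other settings gave from 16 genes to 2.58% of the genes tested. Of the 32, 12 passed in all 5 settings, among them Foxo3, Ampd3, Rab7, Retreg1, Stc2 and Slc25a30.

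The genes named here were chosen after their values had been seen. Differences in F and in M are means of log2 CPM over 5 groups, while M minus F comes from the fit to the counts, so it need not equal the gap between the means. Foxo3 differed in the same direction in both sexes, by 0.79 in the groups labelled F and 0.31 in those labelled M (fitted M minus F -0.48 ± 0.11, adjusted p = 0.027). Rab7, a GTPase of late endosomes and autophagosomes, did likewise, by 0.61 in the groups labelled F and 0.31 in those labelled M (fitted M minus F -0.30 ± 0.06, adjusted p = 0.0133). Retreg1, a receptor for autophagy of the endoplasmic reticulum, differed by 0.91 in the groups labelled F and -0.07 in those labelled M (fitted M minus F -1.15 ± 0.22, adjusted p = 0.00827). Stc2, a secreted stanniocalcin, differed by 1.68 in the groups labelled F and 0.01 in those labelled M (fitted M minus F -1.62 ± 0.32, adjusted p = 0.00827). Retreg1 and Stc2 were higher in the high class in every F group and lay on both sides of 0 among the M groups.

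Ampd3, which removes ammonia from AMP, was lower in the high class in all 5 M groups (from -0.64 to -0.30), while in 4 of 5 F groups it was higher (fitted M minus F -0.81 ± 0.17, adjusted p = 0.0141). Its overall difference of -0.10 joined opposite values. Sesn1, a stress-induced inhibitor of mTOR signalling, differed by 1.02 in the groups labelled F and 0.07 in those labelled M (fitted M minus F -1.15 ± 0.24, adjusted p = 0.0133). Slc25a30, a mitochondrial carrier, went the other way in size, by 0.54 in the groups labelled F and 1.54 in those labelled M (fitted M minus F 1.05 ± 0.22, adjusted p = 0.0141). Il6ra, the interleukin-6 receptor, differed by 1.59 in the groups labelled F and 0.73 in those labelled M (fitted M minus F -1.05 ± 0.22, adjusted p = 0.014), and both sexes were higher in the high class.

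**Figure D5:**
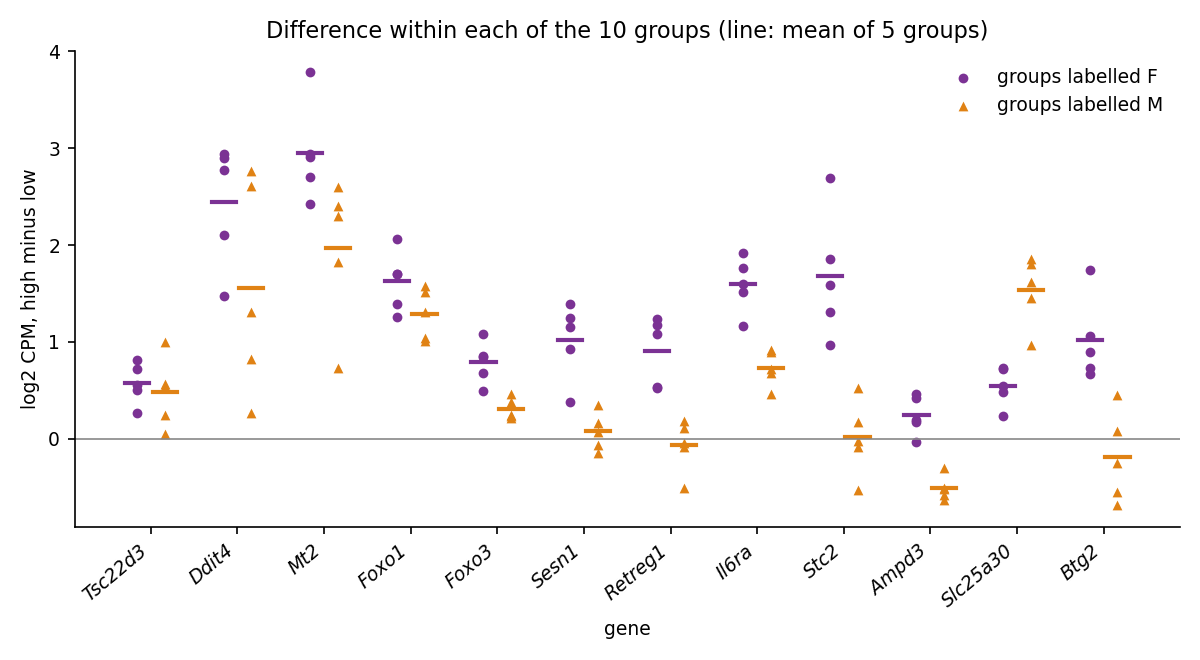
Log2 CPM of high minus low libraries within each of the 10 groups, for 12 genes, with circles for the 5 groups labelled F, triangles for the 5 labelled M and lines for their means. Foxo1 and Mt2 are above 0 in all groups, Stc2 and Retreg1 are above 0 in the F groups and scatter around 0 in the M groups, and all 5 M groups of Ampd3 are below 0.

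The genes next to Fkbp5 on the chromosome were called less often than the whole, without a test of that gap. Of 198 genes starting within 4 Mb, 14 were higher and 5 lower (9.6% against 14.2% of all genes), and chromosome 17 as a whole had 11.4%, the lowest of the autosomes, whose highest was 18.3%. The genes in that window past 1.5-fold were Cdkn1a, Ip6k3, an inositol phosphate kinase of muscle (log2 difference 0.64, adjusted p = 9.73e-08), and 3 unnamed transcripts. Of these Gm49799 (1.46, adjusted p = 0.00685) overlaps Fkbp5 itself, and Gm20109 (0.90, adjusted p = 0.00772) and E230001N04Rik (0.92, adjusted p = 0.000118) overlap each other beside its start. Whether reads of such overlapping genes were told apart by strand is not given in the sources used here.

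The genes whose pattern was most like that of Fkbp5 were ranked by Pearson r over the libraries of neither class within groups, as a description. Rab7 and Foxo1 had the highest r, at 0.52 each, followed by Aff1, a factor of transcription elongation (0.51), Plin4, a lipid droplet coat protein (0.50), Zbtb16 (0.49), Lpin1, a phosphatidate phosphatase (0.47), Pdlim5, a Z-disc protein (0.47), and Slc7a8, Foxo3 and Odf3l2 (0.45 each). Plin4 ranged from 318.7 to 1294 CPM (median 681.4) in the high class and from 224.1 to 520.6 CPM (median 354.8) in the low class (log2 difference 0.94 ± 0.06, adjusted p = 1.67e-22). The lowest were Ky (-0.37), Col15a1, a basement membrane collagen (-0.36), and Gxylt2, Plxna1 and Kdelr3 (-0.35 each). These libraries share the scaling and the depth behind every gene.

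Fkbp5 was compared in animals numbered one after the other. Over pairs of neighbours within a group, the residuals had r = 0.113 and Spearman rho = 0.108, given as a description because these values chose the classes, and r was 0.104 without the 2 pairs farthest from the median. Within the same stretch of library numbers r was 0.111 (87 pairs, 19.8% of all) and between stretches 0.114. What neighbouring numbers shared, such as cage, litter or day, is not in the labels.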

How the data were processed

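RNA was measured by poly(A) sequencing in 474 skeletal muscle libraries. The authors deposited expected counts per gene, 67.3% of them whole, which were rounded, and a variance-stabilised score (DESeq2's VST, GRCm38) that ranked the libraries. The paper states that reads were aligned to a joint transcriptome of the founder strains and quantified with EMASE within GBRS. It does not name the aligner. It also describes a removal of batch effects, and whether the deposited values had this is not known here. The authors' table of gene positions supplied coordinates.

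Genes were filtered with filterByExpr (minimum count 10) and scaled by TMM (factors 0.871 to 1.29). Classes, slopes and the interaction with sex were tested with edgeR 4.0.16 (quasi-likelihood, Benjamini-Hochberg over all genes other than Fkbp5, threshold 0.05) in R 4.3.3, with sex-by-generation group as covariate. Within-group differences are means of log2 CPM (prior count 2). Fold changes are from the fits. limma 3.58.1 on the VST and DESeq2 1.42.0 were alternatives. Library properties used 100000 permutations within groups for means and 20000 for medians.

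Named genes were the list members, 23 genes named whatever their result, and, at a mean of at least 1 CPM with 1 sign in all 10 groups, the 12 highest and 12 lowest differences among protein-coding genes past the threshold. Members and lists were chosen with earlier results of these data known. Scripts were tested on simulated data. Camp, Cd3d, Elovl3, Ly6g and Ngp were not analysed here. The wave of animals, a covariate of the study, is not in the labels and was not used. The values of 2 list members, which stay in the counts of their lists, are not reported here.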

Additional observations from a re-analysis of the deposited data

Results flagged for a closer look

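The interaction of class and sex passed for 32 genes, which is why these results are listed here. For Ampd3 the high minus low difference differed between the sexes by -0.81 on the log2 scale (M minus F), with fitted differences of 0.30 in F alone and -0.51 in M alone. Sesn1 had an M minus F difference of -1.15, with 1.28 in F alone and 0.13 in M alone. Foxo3 had one of -0.48, with 0.81 in F alone and 0.33 in M alone. Foxo3 and Ampd3 passed in all 5 settings tried and Sesn1 in 4. Fkbp5 itself, which set the classes, had medians of 180.5 and 34.5 CPM in the F and 141.1 and 38.4 CPM in the M classes, so the classes were farther apart in F, and the part of that gap in these differences was not tested.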

How the results depend on the processing

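The alternatives are given as the percent of the genes tested that passed. The 14.2% that differed between the classes left 1.5 times that number with marker scores as covariates (8.22%, 1580 genes), in M alone (4.44%, 815 genes), with clock components, added after the data were seen (2.89%), and in stretches 1 to 5 of library numbers alone (0.645%, 0.0773%, 0.0258%, 0.213% and 0%, the last 0 genes in edgeR's test with 1229 of 19339 at an unadjusted p under 0.05). The stretches hold 14 to 28 libraries of the classes, and between 90.8% and 97.8% of the 2724 genes had the same sign there. The 2.2% past 1.5-fold became 0.504% in limma on the VST, 1.85% at a minimum count of 100, 1.45% with marker scores, 1.17% with 10 libraries per class and group, 1.18% in M alone, 0.634% with clock components, and 0.35%, 0.0773%, 0.0206%, 0.187% and 0% in the stretches. Leaving out each group in turn gave 12% to 14.1% and, past 1.5-fold, 1.89% to 2.32%. The 9.42% that followed Fkbp5 became 6.12% in F alone and 1.29% in M alone. The 0.166% with an interaction became 0.0832% in limma, 0.4% in DESeq2, 0.0825% without the libraries with discordant sex-linked RNA and 2.58% with 10 libraries per class and group. For 61 of the named genes each setting was recomputed, and among those that passed between the classes the sign changed in 4 cases, Cyp2e1 in stretch 2 (-0.60), Slc6a2 in stretch 3 (0.087), and Sesn1 (-0.050) and Arntl (-0.045) with clock components. Why these shares moved was not tested, beyond the fewer libraries or genes that the sex, stretch and minimum-count settings hold by construction. The settings tried other than these kept the counts within 1.5 times. The 3 library properties that passed became 2 with medians (without the fibro-adipogenic sum), and the r of neighbouring animals stayed between 0.0993 and 0.113.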
